A study of Mus musculus with 7 samples.

Results

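The genes of the oxidative phosphorylation subunits were examined in microglia sorted from inside and outside WT neuronal grafts. Members were the gene names in the deposited table that begin as the subunits of complex I (Nduf followed by a, b, c, s or v and a digit), complex II (Sdha to Sdhd), complex III (Uqcr), complex IV (Cox4 to Cox8), ATP synthase (Atp5) and the protein-coding genes of mitochondrial DNA do. Names with the suffix ps, which number 8, were left out. This gave 101 genes of 55341, of which 88 lie in the nucleus and 13 in mitochondrial DNA. Among the 88, Cox6c2, Ndufa11b, Ndufb4c and Ndufs6b are annotated as processed pseudogenes, and none of them was tested. After removal of genes with low counts, 85 members of 15257 genes were tested, 78 nuclear and 7 mitochondrial.

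Oxidative phosphorylation makes ATP in mitochondria. Complexes I and II pass electrons from NADH and succinate to ubiquinone, complex III hands them to cytochrome c and complex IV, cytochrome c oxidase, to oxygen. Complexes I, III and IV pump protons across the inner mitochondrial membrane, and ATP synthase, also called complex V, uses their return to make ATP. Complex II is encoded wholly in the nucleus, whereas the other complexes combine subunits of both genomes, so their assembly needs transcripts from the nucleus and from mitochondrial DNA. Microglia, the resident macrophages of the brain, can shift between oxidative phosphorylation and glycolysis when they are activated.

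The 7 libraries came from CD11b+CD45low cells of 5xFAD hosts on a C57BL/6 background, 4 weeks after embryonic cortical cells of WT mice were injected into the neocortex, with a labelled age of 14 weeks and, by the methods, female hosts. 5xFAD mice carry mutated human APP and PS1 under the neuron-specific Thy1 promoter, and the grafted cells carry neither transgene. Microglia inside the graft gave 3 libraries (inside 1 to 3), and microglia from cortex close to a graft in such hosts gave 4 (outside 1 to 4). All samples therefore share the 5xFAD host and a grafted brain, and the labels do not tie a library to a mouse, so P values measure the spread between these libraries.

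Between 18644807 and 25882122 reads per library were counted on genes. Microglial markers (P2ry12, Tmem119, Cx3cr1, Sall1 and Fcrls) summed to 16009 to 19243 CPM (counts relative to the normalized library total) inside and 19298 to 22796 CPM outside the graft, without overlap, and neuronal markers to at most 10.8 CPM. Markers of monocytes summed to 76.5 to 1354 CPM inside against 6.34 to 26.7 CPM outside, with Ly6c2, Chil3 or Vcan at 0 in at least 1 library and 2 of 5 markers without overlap between the groups. Border-associated macrophage markers summed to 15.6 to 94.6 against 5.95 to 15.0 CPM (Cd163, Lyve1 and Cbr2 at 0 in at least 1 library, 2 of 6 without overlap) and those of dividing cells to 71.1 to 107 against 5.95 to 33.6 CPM (Mki67 at 0 in at least 1 library, 5 of 5 without overlap). Among all genes tested, 5.65% were higher inside without overlap. Astrocyte markers summed to 247 to 290 CPM inside and 324 to 350 CPM outside, nearly all of it Slc1a3 (means of 268 and 338 CPM, log2 fold change -0.33), whereas Gfap (1.61), Aqp4 (1.79) and Aldoc (1.03) had positive log2 fold changes from at most 5.70 CPM and Gja1 was at 0. Endothelial markers summed to 18.9 to 25.6 and 27.4 to 43.4 CPM, mostly Pecam1 (log2 fold change -0.78), whereas Flt1 had 2.17. Of the dividing-cell markers, 2 of 5 passed an adjusted P of 0.05 in voomWithQualityWeights (0.492% of all genes tested) and 0 in edgeR. No monocyte, border-associated macrophage, astrocyte or endothelial marker passed it in either test. The part of these cells in the results that follow was not tested, and in bulk RNA fewer cells of a type and less RNA per cell cannot be told apart.

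No subunit gene passed the test of the study for a difference between microglia inside and outside the graft. With limma's voomWithQualityWeights and Benjamini-Hochberg adjustment, 0 of 85 members passed an adjusted P of 0.01, where 0.0197% of all genes tested did, and 0 of 85 passed 0.05, where 0.492% did. With edgeR's quasi-likelihood test 0 of 85 passed 0.05 (0.0983% of all genes), as with DESeq2 (2.75%). At an unadjusted P below 0.05, voomWithQualityWeights found 12 members (14.1%) higher inside the graft, against a background of 7.47%, and 0 lower, against 4.71%. The corresponding numbers for edgeR were 3 higher (3.53%, background 5.76%) and 0 lower (background 3.79%).

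The fold changes of the members were small and mostly positive. The log2 fold change (inside relative to outside) was above 0 for 70 of 85 members, or 82.4%, where 48.3% of all genes were above 0. Its 95% confidence interval lay wholly between -1 and 1 for 82 of 85 members (96.5%, against 58.1% of all genes). The exceptions were Cox6a2, Cox6b2 and Ndufa1. The median log2 fold change was 0.18 for the 78 nuclear members and 0.18 for the 7 mitochondrial members, against -0.013 for all genes tested. The 3 inside libraries were above all 4 outside libraries for 3 members, Cox6a2, Cox6b2 and mt-Co1 (background 5.65%), and below for 0 (background 5.02%).

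**Figure D1:**
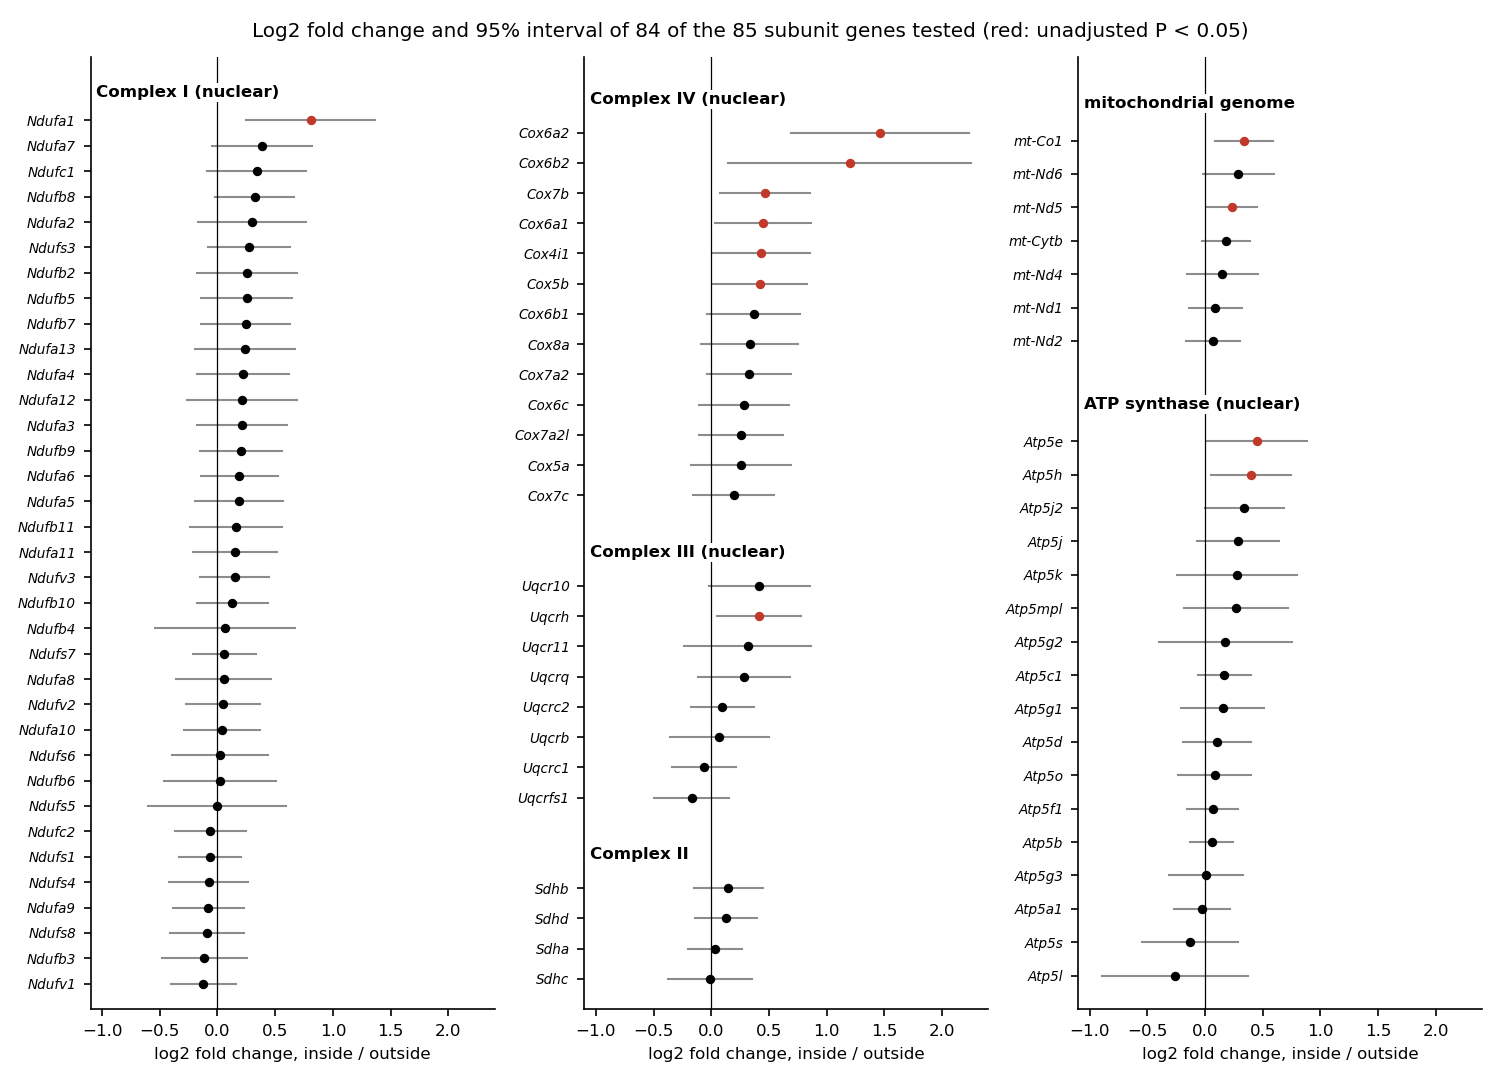
Log2 ratio of inside to outside microglia (x axis) for 84 of the 85 tested members, in rows by complex and genome. Points are estimates of voomWithQualityWeights, lines 95% confidence intervals, and red marks an unadjusted P below 0.05. All 13 nuclear genes of complex IV and all 7 mitochondrial genes lie to the right of 0.

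These counts rested on a few libraries. Inside 2 was the highest of the 7 libraries for 56 of 85 members (65.9%, against 15.2% of all genes tested). Outside 3 was the lowest for 40 members (47.1%, against 10.3%) and outside 4 for 21 (24.7%, against 8.79%). Inside 2 exceeded every outside library for 58 members, inside 1 for 7 and inside 3 for 9. The corresponding shares of all genes are not given, so these counts only compare the inside libraries with each other. Relative to each gene's mean over the outside libraries, the nuclear members had a median of 0.39 on the log2 scale in inside 2 and of -0.013 and 0.00071 in inside 1 and 3. Outside the graft the medians were 0.13 and 0.24 in outside 1 and 2 and -0.21 and -0.13 in outside 3 and 4. The groups thus overlapped, and the pooled SD between libraries of 1 group, 0.22, was above the median fold change of 0.18.

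Among the outside libraries, the library weights moved with this pattern. Outside 3 and 4, where members were low, had weights of 1.71 and 1.76, and outside 1 had the lowest weight of 0.448. Outside 2 had 0.944, and inside 1 to 3 had 1.07, 0.915 and 0.799, so inside 2 was not set apart by its weight. With edgeR, a different test that gave all libraries the same weight, the median of the nuclear members was 0.10 and 57 of 78 were above 0. The edgeR share of all genes above 0 is not given. Without inside 2 the nuclear median was 0.053, without outside 3 it was 0.055 and without outside 4 it was 0.070. In place of 12 members, 3 were higher at an unadjusted P below 0.05 without inside 2 (3.49%, background 7.79%; 1 more was lower), 2 without outside 3 (2.35%, background 5.15%) and 1 without outside 4 (1.18%, background 5.73%). Without inside 1 there were 18 (21.2%, background 7.16%) and without outside 2 there were 25 (29.4%, background 7.78%). The members' share was thus above or below that of all genes depending on the library left out. Of the 12, all but Cox6a2 and Cox6b2 had a log2 fold change more than 1.5 times smaller without 1 library. Inside 2 was also the library with the lowest monocyte sum (76.5 CPM) and the lowest border-associated macrophage sum (15.6 CPM) of those inside. Whether these cells bear on its subunit transcripts was not tested.

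**Figure D2:**
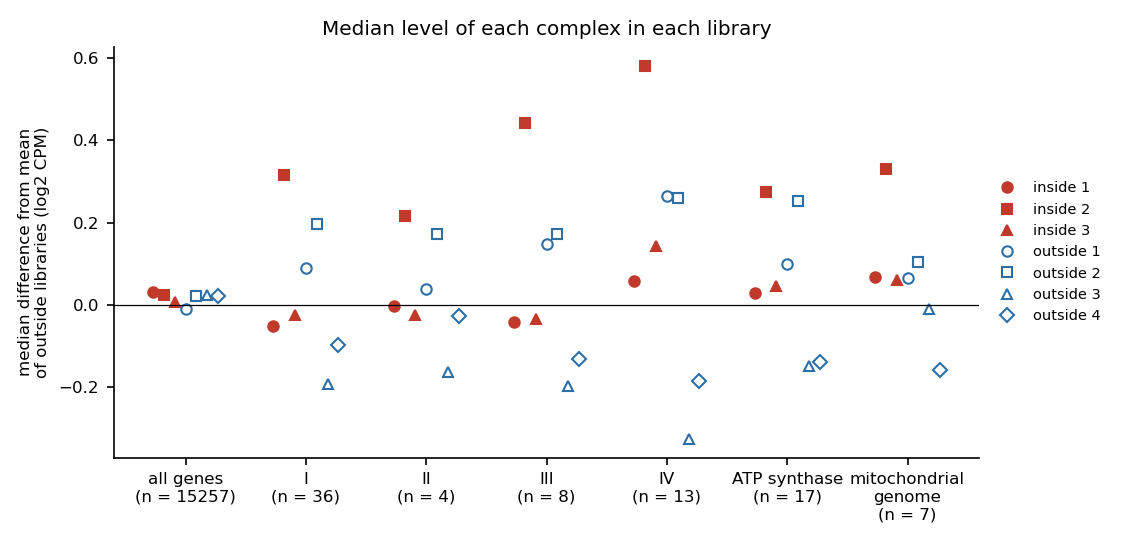
Median difference of the genes of each complex from their own mean over the 4 outside libraries (y axis, log2 CPM), with 1 symbol per library. Inside 2 is the highest and outside 3 or outside 4 the lowest library for each complex and for the mitochondrial genome, whereas the medians of all genes lie close to 0.

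Complex IV had the largest median of the 5 complexes. It was 0.37 on the log2 scale for its 13 tested nuclear genes, all of which were above 0 (48.3% of all genes tested). Of the 13, 6 were higher at an unadjusted P below 0.05 in voomWithQualityWeights (background 7.47%). The smallest adjusted P of the complex in voomWithQualityWeights was 0.097. With edgeR the 13 genes were again above 0, with a median of 0.28 and 1 gene at an unadjusted P below 0.05 (background 5.76%). The median was 0.18 without inside 2 and 0.19 without outside 3, and at most 0.49 over all libraries left out.

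Cox4i1, the ubiquitous form of the largest nuclear subunit, had 217, 328 and 218 CPM in inside 1 to 3 and 243, 256, 157 and 170 CPM in outside 1 to 4. The groups overlapped, with inside 2 highest and outside 3 and 4 lowest. The estimate on the log2 scale was 0.43 ± 0.19 (SE), with an adjusted P of 0.40 in voomWithQualityWeights. Of the same complex, Cox6a1 (0.45), Cox7b (0.47) and Cox5b (0.42) had unadjusted P values of 0.037, 0.024 and 0.044 and overlapped too. Without outside 3 the values were 0.22 for Cox4i1, 0.25 for Cox6a1 and 0.26 for Cox5b, and without inside 2 that of Cox7b was 0.29. Cox5b, which sits on the matrix side of the enzyme, and Cox7b are outside the rule for named genes and were chosen after their values were seen. The values of Cox5a, which binds the matrix face, and of Cox7c and Cox8a, small membrane subunits, were 0.26, 0.19 and 0.33.

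Cox6a2 had the largest log2 fold change and the smallest P of the members. It encodes the heart and skeletal muscle form of subunit VIa, whose other form, Cox6a1, is found in most tissues. Its level was 15.2, 26.9 and 12.5 CPM in inside 1 to 3 and 10.8, 10.8, 4.5 and 5.82 CPM in outside 1 to 4. All inside libraries lay above all outside libraries, though inside 3 exceeded outside 1 by little. The log2 fold change was 1.46 ± 0.35 (SE), with a 95% confidence interval of 0.69 to 2.23, an unadjusted P of 0.0015 and an adjusted P of 0.097 in voomWithQualityWeights. In edgeR it was 1.19 with an adjusted P of 0.30. The estimate was between 1.05, without outside 3, and 1.67, without inside 3.

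Cox6a1 was the main form in both groups. Per length, in TPM (transcript counts scaled by exon length), Cox6a2 made up 10.9%, 12.7% and 8.93% of the transcripts of both genes in inside 1 to 3 and 6.87%, 7.21%, 4.75% and 5.73% in outside 1 to 4. The mean share was 10.8 ± 1.87% (SD, n = 3) inside and 6.14 ± 1.12% (SD, n = 4) outside the graft, with no overlap. This share was taken up after the fold change had been seen and is given without a test.

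Cox6a2 lies on the minus strand of chromosome 7 of GRCm38, chr7:128205435-128206387, with 3 exons and 680 exon bases. The gene sits inside Itgad (chr7:128154376-128223816, plus strand), an integrin gene, and 70 of its exon bases, or 10.3%, overlap an exon of Itgad. The counting ignored strand, so reads in these bases cannot be assigned to either gene alone. Itgad itself had 0.0402 to 2.34 CPM per library. Itgax (chr7:128129547-128150657), the integrin gene of CD11c, ends 54777 bases from Cox6a2 and had 77.9, 164 and 68.3 CPM inside and 42.4, 35.6, 29.3 and 38.3 CPM outside the graft (log2 fold change 1.46, adjusted P = 0.047 in voomWithQualityWeights and 0.077 in edgeR). Itgam, the integrin gene of CD11b, which ends 86943 bases from Cox6a2, had 350, 345 and 310 CPM inside and 259, 295, 389 and 356 CPM outside, a log2 fold change of -0.035. These neighbours were chosen after their values were seen.

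**Figure D3:**
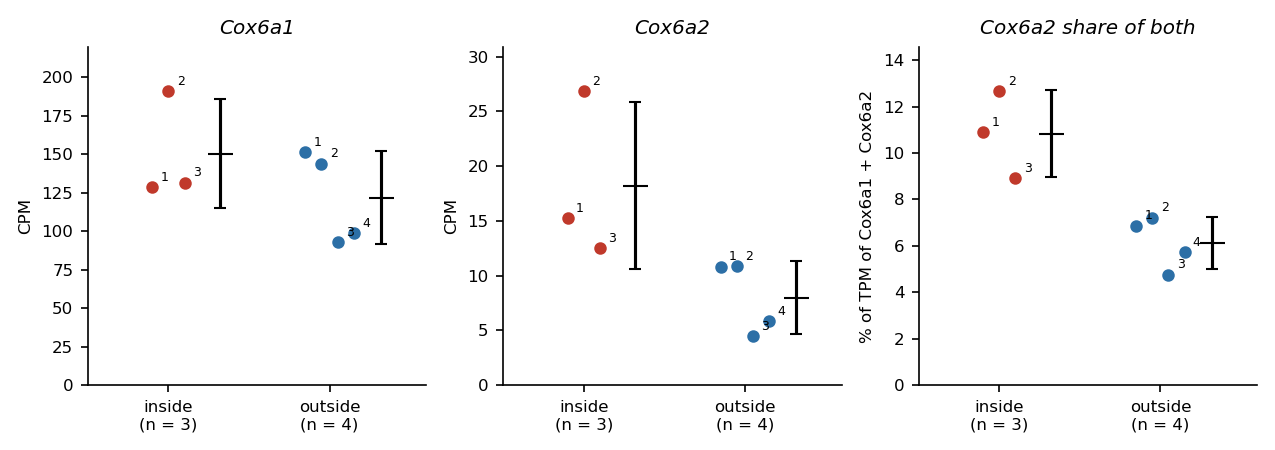
CPM of Cox6a1 and Cox6a2 and the share of Cox6a2 in the TPM of both (y axes) in the 3 libraries inside and the 4 outside the graft. Numbers are the replicates of the labels, bars the mean and SD. Cox6a1 overlaps between the groups, whereas each inside library has a higher share of Cox6a2, 8.93% to 12.7%, than each outside library, 4.75% to 7.21%.

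The other tissue-specific forms of complex IV were rare or absent. Cox6b2, the testis form of subunit VIb, had 3.4, 1.6 and 3.1 CPM inside and 1.5, 1.3, 0.92 and 1.2 CPM outside. The difference on the log2 scale was 1.20 ± 0.48 (SE; adjusted P = 0.34 in voomWithQualityWeights), and the gene made up 1.21 ± 0.600% (SD, n = 3) of the TPM of Cox6b1 and Cox6b2 inside and 0.632 ± 0.0773% (SD, n = 4) outside, where inside 2 (0.529%) lay below all outside libraries. The common form Cox6b1 had a log2 fold change of 0.37. Cox4i2, the lung form, had 9 counts in outside 1 and 0 elsewhere. Cox7a1, the muscle form of subunit VIIa, had 0 to 14 counts per library beside Cox7a2, whose log2 fold change was 0.33, and the related Cox7a2l had one of 0.26. Cox8b and Cox8c had 0 counts in each library, which allows 3 counts, or 0.116 to 0.161 CPM.

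Complex I, the NADH dehydrogenase, had a median of 0.15 over 36 tested nuclear genes, 27 of them above 0. Without inside 2 the median was 0.028, without outside 3 it was 0.038 and without outside 4 it was 0.063. Ndufv1, which holds the NADH site, had a log2 fold change of -0.12. Ndufc2, the most abundant per length at 484 ± 49.9 TPM outside, had one of -0.061, and the accessory subunits Ndufa7 and Ndufa2 had 0.38 and 0.30 (0.19 and 0.097 without outside 4). Ndufa4, named for complex I but since described in complex IV, had 0.22.

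Ndufa1, an X-linked accessory subunit, had the largest value of complex I. It had 61.4, 108 and 49.3 CPM in inside 1 to 3 and 46.7, 58.1, 34.6 and 35.7 CPM in outside 1 to 4. Inside 3 lay between outside 1 and outside 2, so the groups overlapped. The log2 fold change was 0.81 ± 0.26 (SE; unadjusted P = 0.00905, adjusted P = 0.21) in voomWithQualityWeights, 0.74 in edgeR and 0.48 without inside 2. Ndufa1 lies at chrX:37187588-37191163 on the minus strand, has 419 exon bases and shares no exon base with another gene. Its divergent neighbour Rnf113a1, which starts 81 bases away on the plus strand, had 2.78, 2.97 and 7.53 CPM inside and 7.83, 7.82, 5.22 and 5.91 CPM outside (log2 fold change -0.69, adjusted P = 0.54 in voomWithQualityWeights) and was chosen after its values were seen.

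Complex II showed the smallest median, 0.079 over 4 genes, with 0.030 without inside 2, 0.035 without outside 3 and 0.14 without inside 3. Sdhb (0.15) and Sdhd (0.12) were slightly above 0. Sdha, the flavoprotein that oxidises succinate, had 305, 264 and 256 CPM inside and 209.6, 283, 272 and 280.1 CPM outside, a log2 fold change of 0.033. Sdhc, a membrane anchor, had a value of -0.0079. For Sdha the 95% confidence interval was -0.21 to 0.27 and for Sdhc it was -0.37 to 0.36.

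In complex III the median of 8 genes was 0.19, and it was 0.040 without outside 3, 0.066 without outside 4, 0.10 without inside 2 and 0.29 without outside 2. Uqcrfs1, the Rieske iron-sulfur protein, had -0.17 and the core protein Uqcrc1 had -0.061, whereas the small subunits Uqcr10 and Uqcrh had 0.42 and 0.41 and Uqcrb had 0.071. Uqcrh, the hinge protein beside cytochrome c, had 56.5, 76.4 and 52.5 CPM inside and 47.8, 53.7, 39.9 and 47.6 CPM outside the graft. Inside 3 lay below outside 2, the log2 fold change was 0.25 without inside 2, and the adjusted P was 0.33 in voomWithQualityWeights and 0.51 in edgeR.

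ATP synthase had a median of 0.15 over 17 genes, with 14 above 0, and one of 0.041 without outside 4, 0.049 without inside 2 and 0.050 without outside 3. Its most abundant gene per length, the catalytic beta subunit Atp5b, had 491, 547 and 488 CPM inside and 496, 519, 467 and 489.6 CPM outside. On the log2 scale the groups differed by 0.058 (95% confidence interval -0.13 to 0.24). The gamma subunit of the rotor, Atp5c1, had 0.17. Atp5e, the epsilon subunit, and Atp5h, subunit d of the stalk, had 0.45 and 0.40, with unadjusted P values of 0.042 and 0.027 and adjusted P values of 0.38 and 0.32 in voomWithQualityWeights. Without outside 3 they had 0.27 and 0.25. Atp5l, subunit g of the membrane part, had the lowest value of all members (-0.26) from 7.4 to 15.1 CPM, and it had -0.55 without outside 4 and -0.15 without outside 2. Atp5s, the coupling factor B, had -0.13.

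The 3 genes that encode 1 and the same mature c subunit kept the same order. Per length, Atp5g3 made up 76.2 ± 1.95% (SD, n = 3) of their TPM inside and 77.2 ± 2.09% (SD, n = 4) outside the graft, Atp5g1 13.3 ± 1.04% and 12.8 ± 0.929%, and Atp5g2 10.4 ± 2.11% and 10.0 ± 1.35%. Their log2 fold changes were 0.0093, 0.15 and 0.18. Of Atp5g2, 35.8% of the 75-base stretches also occur in another annotated gene, which can lower its counts, as can 33.6% of those of Atp5o. In all, 16 of 78 tested nuclear members shared more than 10% and 41 shared none.

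The 13 genes of mitochondrial DNA fell into 2 kinds in this table. Those tested, 7 in number, had 2659 to 19436 counts per library, and the other 6 had 0 to 2. These 6 (mt-Co2, mt-Atp8, mt-Atp6, mt-Co3, mt-Nd3 and mt-Nd4l) lie next to each other on mitochondrial DNA. A nuclear copy of this stretch is annotated on chromosome 1 of GRCm38 as a row of pseudogenes on the minus strand. Its copies of mt-Atp6 (678 bases), mt-Co2 (681 bases), mt-Co3 (783 bases) and mt-Nd4l (294 bases) are identical to the mitochondrial genes base for base, as is a copy of 876 bases of mt-Nd4. The authors' counting left out reads that aligned to several places. Of all 75-base stretches, the length that the sequencing kit reads, 99.5% of those of mt-Atp6 and mt-Co2, 99.9% of mt-Co3, 98.7% of mt-Nd4l and 97.8% of mt-Nd3 occur in another annotated gene as well. For mt-Atp8, which lies between mt-Co2 and mt-Atp6, no copy is annotated and the share was 0. The counts of these 6 genes cannot be read as levels.

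The first 75 bases of mt-Nd3 and of its copy Gm28438 are shown because 1 base, in capitals, is all that separates them over 345 aligned bases (T3C, counted from 1 at the first base of mt-Nd3, with the base of mt-Nd3 first). The first 75 bases of mt-Co2, which its copy Gm28661 (chr1:24615491-24615565) shares letter for letter, are given as the case without a difference. They are written 5′ to 3′ from chrM:9459-9533 (plus strand), chr1:24613045-24613119 (minus strand) and chrM:7013-7087 (plus strand) of GRCm38.
mt-Nd3: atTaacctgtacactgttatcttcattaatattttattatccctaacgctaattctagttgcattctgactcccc
Gm28438: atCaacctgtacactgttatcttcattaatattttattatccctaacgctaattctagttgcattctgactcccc
mt-Co2: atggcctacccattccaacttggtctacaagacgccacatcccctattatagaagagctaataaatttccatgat

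Gm28438 had 41 to 89 counts per library, whereas mt-Nd3 had 0 in each. The other pseudogenes of the row had 0 to 3 counts. Of the genes that were tested, mt-Nd4 shared 61.5% and mt-Co1 39.8% of its 75-base stretches, mt-Nd2 5.71% and mt-Nd5 1.66%, and mt-Nd1, mt-Nd6 and mt-Cytb none. The copy of mt-Co1, Gm29216, begins at base 1054 of the gene and differs from it by 6 of 492 bases near its start (T1056A, C1057T, A1059G, A1060G, C1062A and A1066T, counted from the first base of mt-Co1). Both are shown from this base, with the differing bases in capitals, since the stretches shared with the copy begin after them, at chrM:6381-6455 (plus strand) and chr1:24616123-24616197 (minus strand).
mt-Co1: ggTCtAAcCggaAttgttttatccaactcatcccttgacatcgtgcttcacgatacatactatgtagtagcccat
Gm29216: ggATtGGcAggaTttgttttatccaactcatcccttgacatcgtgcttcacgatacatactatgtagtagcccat

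**Figure D4:**
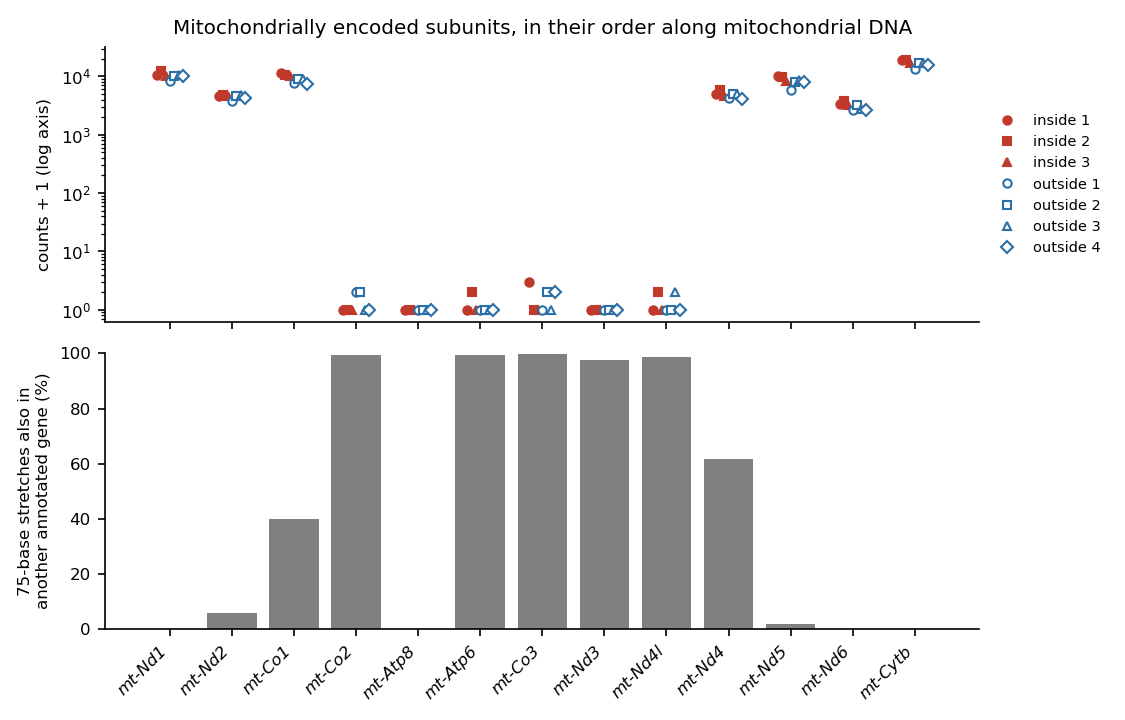
Counts plus 1 of the 13 mitochondrially encoded subunit genes in each library (upper y axis, log scale) and the percentage of their 75-base stretches that occur in another annotated gene (lower y axis), in the order of the genes on mitochondrial DNA. The 6 genes with 0 to 2 counts stand side by side, and for 5 of them at least 97.8% of the stretches are shared.

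The 7 tested mitochondrial genes were all above 0, with a median log2 fold change of 0.18. It was 0.10 without inside 2 and 0.11 without outside 4. mt-Co1, the catalytic subunit of complex IV, had 443, 458 and 421 CPM in inside 1 to 3 and 405, 394, 368 and 300.1 CPM in outside 1 to 4. All inside libraries lay above all outside libraries, and outside 4 was the lowest. The log2 fold change was 0.34 ± 0.11 (SE; unadjusted P = 0.013, adjusted P = 0.24 in voomWithQualityWeights), and 0.20 without outside 4. In edgeR it was 0.27, with an adjusted P of 0.54.

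The complex I genes of mitochondrial DNA had log2 fold changes of 0.24 (mt-Nd5), 0.29 (mt-Nd6), 0.15 (mt-Nd4), 0.090 (mt-Nd1) and 0.070 (mt-Nd2). mt-Nd5 had 402, 437 and 349.7 CPM inside and 315, 361, 348 and 319.6 CPM outside, with inside 3 below outside 2, and its log2 fold change was 0.16 without inside 2. mt-Nd6 is the only member on the minus strand of mitochondrial DNA and overlaps mt-Nd5 by a few bases. mt-Cytb, the cytochrome b of complex III, had 739, 861 and 726 CPM inside and 723, 745, 691 and 631 CPM outside (log2 fold change 0.18, adjusted P = 0.48 in voomWithQualityWeights).

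The mitochondrial members that were tested were more abundant per length than the nuclear ones. Outside the graft their median was 748 TPM, from 468 TPM for mt-Nd4 to 1924 TPM for mt-Cytb, which is 6.65 times the median of 113 TPM of the nuclear members. The most abundant nuclear member was Cox6b1 at 561 ± 92.4 TPM (SD, n = 4), followed by Cox8a and Cox6a1, and the rarest tested was Cox6b2 at 3.56 ± 0.599 TPM. The levels of mt-Nd4 and mt-Co1 can be understated by reads that were not counted.

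The mitochondrial members took 0.259 ± 0.0180% (SD, n = 3) of all counts inside and 0.238 ± 0.0192% (SD, n = 4) outside the graft. The shares were 0.247%, 0.280% and 0.250% in inside 1 to 3 and 0.247%, 0.256%, 0.238% and 0.212% in outside 1 to 4, so the groups overlapped. Counting error was small beside this, with a Wilson 95% interval of at most ± 0.00225 percentage points. The nuclear members took 0.602 ± 0.0668% and 0.572 ± 0.0638%. For 100 counts on nuclear members there were 43.2 ± 1.76 on mitochondrial members inside and 41.8 ± 3.34 outside the graft. The 6 untested mitochondrial genes add almost nothing to these sums, and reads of mt-Nd4 and mt-Co1 can be missing. Both the shares and the ratio can thus understate the mitochondrial level. Mitochondrial ribosomal RNA, of which mt-Rnr2 is the larger, took 0.136% to 0.170% of the counts inside and 0.0850% to 0.213% outside.

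Fold changes of the nuclear members varied with exon length. The Spearman correlation of exon length in the table and log2 fold change was -0.33 over the 78 nuclear members, against -0.014 over all genes tested. It is a description across genes that share the same 7 libraries. The 39 shorter members, up to 1631 bases, had a median of 0.24 and the 39 longer ones of 0.096. In inside 2 the shorter members stood 0.47 and the longer ones 0.24 above their means over the outside libraries. With the trend on length removed from each library over all genes, the median of complex IV was 0.32 and that of the nuclear members was 0.15. This trend was fitted over all genes, so it need not remove the relation with length among the members. Complex IV had the shortest genes, with a median of 1131 exon bases, and complex II the longest, with 2744.5.

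**Figure D5:**
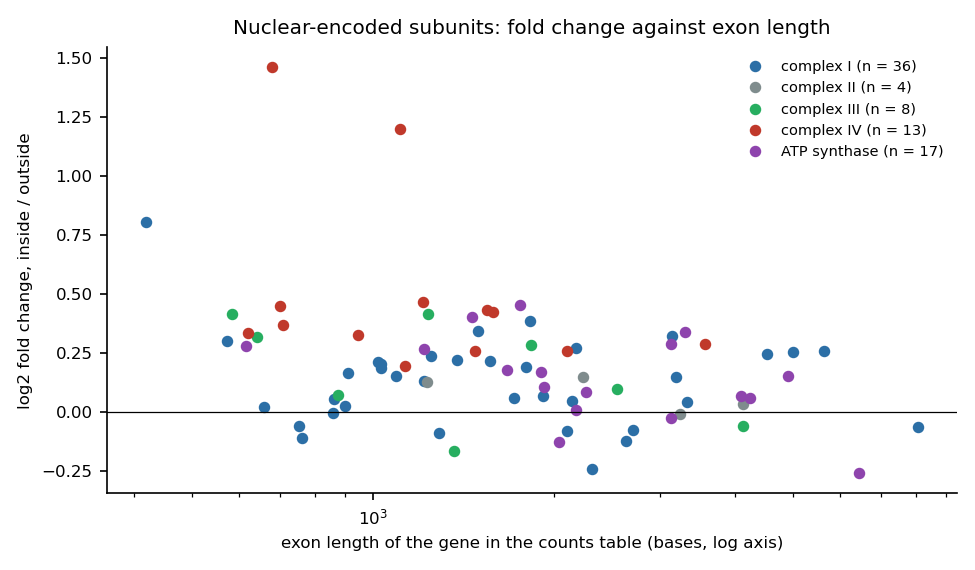
Log2 ratio of inside to outside microglia (y axis) against exon length (x axis, log scale) for the 78 tested nuclear members, coloured by complex. The 3 genes above 0.5, Cox6a2, Cox6b2 and Ndufa1, are all shorter than the median of 1631 bases, and the lowest value, -0.26, belongs to a long gene, Atp5l.

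Promoters of the nuclear members were searched for the letters bound by 3 factors known for such genes. RefSeq promoters of GRCm38.p6, from 250 bases before to 50 after a start site, were at hand for 68 of 88 nuclear members. The processed pseudogenes among the members had none. All genes here means the 27025 genes with such a promoter, whether or not they were tested in microglia. On either strand, GCATGCGC (NRF1) stood in those of 10 of 68 members (14.7%, against 3.05% of all genes), CCGGAAG (the GABP core) in 16 (23.5%, against 9.93%) and AAGATGGC (YY1) in 10 as well (14.7%, against 3.19%). The NRF1 letters were first searched with GC before them, which stood in 5 of 68 members (7.35%, against 1.07% of all genes), and were shortened after that result was seen. The 250 bases before the start of Cox6a1 (chr5:115348959-115349208, minus strand) are shown because they hold the first string, on both strands over 10 bases, and the second on the other strand, all in capitals. Of these bases 23 lie in the first exon of Cox6a1 in GENCODE M21.
Cox6a1: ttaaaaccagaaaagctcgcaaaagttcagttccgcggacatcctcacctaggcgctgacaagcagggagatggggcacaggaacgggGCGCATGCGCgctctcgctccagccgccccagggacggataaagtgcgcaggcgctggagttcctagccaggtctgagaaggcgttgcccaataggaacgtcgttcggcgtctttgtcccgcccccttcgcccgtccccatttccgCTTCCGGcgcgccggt

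Lists of genes that serve the subunits had median log2 fold changes between -0.066 and 0.063, apart from the mitochondrial ribosomal RNAs with 0.16 over 2 genes. Differences between lists were not tested. By voomWithQualityWeights and by edgeR with Benjamini-Hochberg adjustment, 0 genes of these lists passed 0.05 (0.492% and 0.0983% of all genes tested). At an unadjusted P below 0.05 in voomWithQualityWeights, 7.47% of all genes tested were higher inside and 4.71% lower. The median log2 fold change was -0.046 for 4 subunits and carriers that the name rule leaves out, among them cytochrome c (Cycs, 0.18) and cytochrome c1 (Cyc1, -0.044). It was 0.019 for 43 assembly factors, with 1 gene higher and 1 lower at an unadjusted P below 0.05, and -0.0096 for 78 proteins of the mitochondrial ribosome, with 2 higher and 1 lower. Of 17 genes for mitochondrial transcription and its nuclear regulators, 16 were tested, with a median of -0.066, 1 gene lower at an unadjusted P below 0.05 and values of 0.12 for Tfam, which packages and transcribes mitochondrial DNA, -0.23 for Nrf1 and 0.016 for Gabpa. The 16 genes of the tricarboxylic acid cycle and pyruvate dehydrogenase had a median of -0.0072 and the 7 genes of ADP/ATP, phosphate and outer membrane channels one of 0.063, both with 0 genes at an unadjusted P below 0.05. The 2 mitochondrial ribosomal RNAs had values of -0.052 (mt-Rnr1) and 0.38 (mt-Rnr2).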

How the data were processed

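RNA of sorted microglia from 7 samples was amplified (SMART-Seq v4, Nextera XT) and sequenced as single reads. The authors aligned reads with STAR 2.7.2a to GENCODE M21 (GRCm38.p6) and deposited the raw featureCounts 1.6.2 counts of each gene with its exon length in bases. Counting ignored strand and discarded reads with several alignments, so that genes with close copies are undercounted. Totals per library were 18644807 to 25882122. Wilson intervals and floors at 0 cover counting error only, since amplified reads are not independent molecules, whereas intervals of fold changes come from the spread between libraries.

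Groups came from the titles in the labels. Genes were filtered with filterByExpr, scaled with TMM and compared with limma's voomWithQualityWeights, lmFit and eBayes, the test of the study, with Benjamini-Hochberg adjustment over all 15257 genes and a threshold of 0.01. The edgeR quasi-likelihood test and DESeq2 stood beside it (R 4.3.3, edgeR 4.0.16, limma 3.58.1, DESeq2 1.42.0). CPM use TMM-scaled library sizes, and TPM use the exon length. No test was made on a list, a score or a share. Stretches of 75 bases were compared between the annotated transcripts of all genes. The members and lists were chosen with earlier results of these data known. Named genes were the 13 mitochondrial members, the Sdh genes, alternative forms of 1 subunit and, per complex, the 2 most abundant genes and the 2 with the largest and the 2 with the smallest fold change, and any member past 0.05. Of these genes and the microglial markers, 1 each is not reported here. Alternatives were other scalings, filters, tests and weights, the replicate number as a block and each library left out. On simulated counts for 15257 genes with 200 changed, voomWithQualityWeights found, at an adjusted P below 0.05, 2.49%, 30.6% and 63.7% of those with a true fold of 1.41, 2 and 4, and 4.8 unchanged genes were called per simulated data set.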

Additional observations from a re-analysis of the deposited data

Results flagged for a closer look

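Among the 4 outside libraries, 55 values (named genes, shares of counts and complex medians) were compared for a library far from the rest, and 1 was found, where chance would give 2.75. Sdha had 209.6 CPM in outside 1 against 272 to 283 CPM in the other outside libraries. Outside 1 was the library with the smallest total and the lowest weight. The cause was not tested.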

How the results depend on the processing

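No member passed an adjusted P of 0.01 under any alternative run. At 0.05, with genes of at least 10 counts in every library, 1 did (Cox6a2, adjusted P = 0.045 in voomWithQualityWeights), in a range of 0.045 to 0.49 over its alternatives. The share of the 12066 genes of that run that passed is not given, so this call has no background beside it. The 12 members at an unadjusted P below 0.05 were 3 with edgeR, 5 with voom without weights (5.88%, against 6.49% of all genes higher) and 1 to 25 with each library left out. There were 8 with DESeq2 (9.41%, against 6.82%), 8 with library size alone (9.41%, against 6.65%) and 11 without a filter (11.3%, against 5.48%). RLE factors gave 13 (15.3%, against 8.01%), removal of the length trend 15 (17.6%, against 8.13%) and at least 10 counts in every library 16 (18.8%, against 7.37%). Apart from libraries left out, no median changed sign or moved by more than the pooled SD between libraries. That SD exceeded the median itself for the nuclear members (0.22 against 0.18) and for complexes I, II, III and V. A fall to 0 would not have counted as a move there. Of 462 values of the named genes, 453 kept their sign. All stayed above the threshold of 0.01, as no member passed it in any run. The 9 that changed sign were all within 0.070 of 0 on the log2 scale: Sdhc (0.0085 with RLE factors and 0.015 with the length trend removed), Atp5g3 (-0.035 with library size alone and -0.030 without a filter), Sdha (-0.0026 with library size alone) and Uqcrb (-0.038 with edgeR, -0.024 with DESeq2, -0.032 with voom without weights and -0.070 with the replicate block). With each library left out, fold changes of both signs were seen for Sdhc (-0.16 to 0.11), Atp5g3 (-0.093 to 0.16), Ndufc2 (-0.19 to 0.011), Uqcrc1 (-0.17 to 0.047), Uqcrb (-0.12 to 0.20), Sdha (-0.056 to 0.070), Atp5g2 (-0.030 to 0.34), mt-Nd1 (-0.032 to 0.16), mt-Nd2 (-0.016 to 0.13) and mt-Nd4 (-0.0012 to 0.21). This list covers the named genes only, and other members, such as Ndufa10, Ndufa8 and Ndufs5, had both signs as well. The causes were not tested. Removal of the length trend and Ndufa4 counted with complex IV (median 0.35) were chosen after seeing the data.

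Whether the replicate numbers of the labels pair the samples could not be decided from the counts. The deviations of same-numbered libraries had correlations of -0.043, 0.090 and 0.067, and those of the other pairs were between -0.12 and 0.064. So few libraries with such weak correlations cannot tell whether equal numbers mark the same mouse. With the number as a block, without outside 4, 7 members (8.24%, against 7.40% of all genes higher) had an unadjusted P below 0.05 and 0 passed adjustment, and the nuclear median was 0.11.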
